A study of Mus musculus with 24 samples.

Results

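Early and late subjective night were compared in the suprachiasmatic nucleus (SCN) of the mouse, the hypothalamic pacemaker of daily rhythms. Of the 24 arrays of the series, 8 entered: 4 of early subjective night, labelled T36, T38, T60 and T62 (circadian time, CT, 12 and 14), and 4 of late subjective night, labelled T20, T22, T44 and T46 (CT 20 and 22). All arrays of both groups carried RNA of mice of the strain C57/BL6 that had lived in 12 h of light and 12 h of dark for 3 weeks and then in darkness. The labels name no mutation and no drug or other agent. Sex and age are not given in the sources used here. Tissue was taken every 2 h from T18 to T64, with 1 array per time, and each array held RNA pooled in equal amounts from 3 mice. In circadian time, T36 to T46 lie in 1 and the same subjective night, whereas T20 and T22 come from the night before and T60 and T62 from the night after. Transcript levels are log2 intensities of Affymetrix MoGene 1.0 ST arrays, and each of 19938 genes was read by 1 probe set.

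In constant darkness the clock of the SCN keeps its own time. A mouse, a nocturnal animal, is most active in early subjective night and rests more towards its end, while the SCN neurons themselves fire faster by day than by night. In the molecular loop, CLOCK and its partner BMAL1 (encoded by Arntl) activate the Period and Cryptochrome genes, whose proteins later repress that activation. Rhythms of hormones and of body temperature reach the SCN as well, among them glucocorticoids, which rise around the onset of activity in nocturnal rodents.

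The comparison asked which transcripts differed between the first hours and the last hours of the subjective night. Cycle 1 held T20, T22, T36 and T38, and cycle 2 held T44, T46, T60 and T62. Within each cycle the late arrays thus came from the night before the early arrays. Labelled time was therefore not balanced between the groups, and its part was not tested. Only T36, T38, T44 and T46 set early against late hours of the same night. Below, values of a gene are given in the order T36, T38, T60, T62 for early night and T20, T22, T44, T46 for late night, and a difference is late minus early night in log2 units with its standard error (SE). Since each time has 1 array, the 2 neighbouring times and the 2 cycles stand in for replicates (n = 4 arrays per group), and p-values measure the spread between these arrays only. As the SCN was measured in bulk, fewer cells of a type and less RNA per cell cannot be told apart.

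The 8 arrays differed in ways that touch every result. The interquartile range of all deposited probe sets was 2.67 at T62 and up to 2.80 in the other early arrays, against 2.80 to 2.90 in the late arrays. The array background, the mean of 1190 olfactory and vomeronasal receptor genes, lay between 0.01 below and 0.19 above the series mean in early night (highest at T62). In late night it lay between 0.02 and 0.15 below that mean, so the groups did not overlap. In step with this, the dimmest decile of genes had a median difference of -0.09 and the brightest decile one of 0.09. Without T62 these medians were -0.07 and 0.07, and after quantile normalisation both lay within 0.01 of 0. Anterior pituitary markers averaged 7.24 at T20 and 6.42 at T22, against 5.25 to 5.53 in the other 6 arrays. The SCN peptide genes Avp (10.2 to 11.6) and Vip (9.90 to 10.75) were among the bright genes in all 8 arrays.

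**Figure D1:**
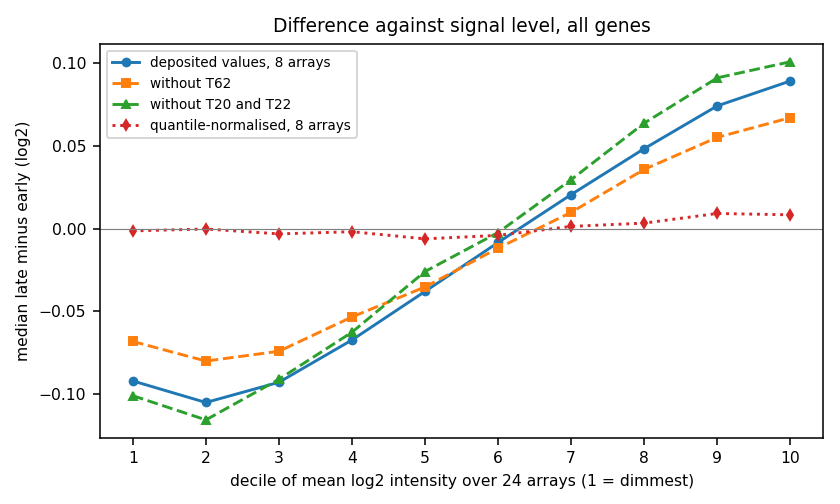
Median late minus early night difference (log2, vertical axis) of the genes in each decile of mean signal (horizontal axis, dimmest to brightest). Circles are the deposited values of 8 arrays, squares omit T62, triangles omit T20 and T22, and diamonds are quantile-normalised values. The deposited medians run from -0.09 to 0.09, and the quantile-normalised medians stay within 0.01 of 0.

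In the fit of all 19938 genes (limma, cycle as a block, Benjamini-Hochberg adjustment, threshold 0.05), 22 genes were higher in late night, 0.11% of those tested, and 12 were lower, 0.0602%. Their adjusted p-values all lay between 0.0393 and 0.0498, and 4346 genes had an unadjusted p under 0.05. By sign alone 8740 of all genes were higher and 11198 lower, and the sign too shifted with signal level. In 1608 genes, 8.07%, all 4 late arrays lay above all 4 early arrays, and in 1193 genes, 5.98%, all late arrays lay below. The share with all late arrays above (called apart upwards from here on) depended on signal, at 0.1% in the dimmest decile, 20.4% in the ninth and 29.1% in the brightest. The share apart downwards was between 3.96% and 9.03% in every decile. Beside each gene list, the mean of these shares over the deciles of its members is therefore given as the level share. When genes dimmer than the 30th percentile were left out, 407 genes were higher (2.92% of 13956) and 164 lower (1.18%). Quantile normalisation gave 16 higher and 26 lower, and centring each array on its median gave 156 and 39. Without T62 0 genes were higher and 1 lower, and without T20 and T22 none passed. With the array background as a covariate 0 and 1 passed, and that 1 gene was not among the 22 or the 12. Each single array, when omitted, left at most 3 calls.

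The genes called higher in late night were led by Syt17, a member of the synaptotagmin family. Syt17 measured 8.20, 8.22, 8.24 and 8.27 in early night and 8.99, 8.61, 8.87 and 9.05 in late night. The early arrays lay close together and every late array was above them, with a difference of 0.64 ± 0.09 (1.56-fold, adjusted p = 0.0462). Dsel, an epimerase-like protein of dermatan sulfate synthesis, measured 6.82, 7.004, 6.97 and 6.98 against 7.47, 7.42, 7.58 and 7.87 (0.64 ± 0.08). Rab6b, a GTPase of Golgi traffic in neurons, had the smallest adjusted p of the higher genes (0.0393). Its early values of 9.49, 9.47, 9.46 and 9.54 rose to 10.06, 9.96, 10.02 and 9.99 (0.52 ± 0.06). The arrays within each group of Rab6b lay close together, and the groups did not overlap.

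Called genes with smaller differences followed. Tubb5, a beta-tubulin, measured 9.28, 9.42, 9.52 and 9.38 against 9.84, 9.83, 9.92 and 9.96 (0.49 ± 0.06). Cacng7, an auxiliary subunit of AMPA receptors, differed by 0.49 ± 0.08, and Slitrk1, a synaptic adhesion protein, by 0.45 ± 0.07. The synaptic vesicle protein gene Syn1 went from 7.70, 7.70, 7.73 and 7.88 to 8.06, 8.09, 8.20 and 8.22 (0.39 ± 0.06). Of its early arrays T62, the array of narrow range, was the highest. Syn1 was named as a pan-neuronal marker and is not among the 12 genes of largest difference. Slc39a10, a zinc importer, was 0.47 ± 0.07 higher. Fam122b (0.57 ± 0.08), Tmem255a (0.50 ± 0.07), Lix1l (0.45 ± 0.07) and Sp140 (0.45 ± 0.06), a nuclear body protein best known from immune cells, were also called. With Mir421, described among the microRNA loci, these and the genes above other than Syn1 are the 12 with the largest difference. Outside the rule for naming were Dtd1, Atp6v0d1 (a subunit of the vesicular proton pump), Uchl1 (a neuronal deubiquitinase), Adgrg1, Got1, Khdrbs2, Tagln3, Mir374b and Mirlet7f-1, with differences of 0.37 to 0.44.

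Over the whole day these 22 genes were not simply night genes. Of the 22, 17 had their lowest mean of both cycles at CT 16, in the arrays T40 and T64, and 14 had their highest at CT 0. The arrays T40 and T64 had interquartile ranges of 2.48 and 2.65, the lowest of all 24. In 18 of the 22 the level at CT 16 and 18 was nearer to early than to late night, and in 18 the level at CT 0 and 2 was nearer to late night. At CT 8 and 10, the end of the subjective day, 6 of the 22 were nearer to early night.

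Of the 22 higher genes, 3 are microRNA loci, and their mature sequences are shown because the seed (bases 2 to 8, in capitals) sets which messenger RNAs a microRNA can pair with. The sequences are those of RefSeq (GRCm38.p6). For Mir421 only the 5p product was listed in the source used, so its set may be incomplete.
mmu-miR-421-5p: cUCAUUAAauguuuguugaau
mmu-miR-374b-5p: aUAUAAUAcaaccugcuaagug
mmu-miR-374b-3p: gGUUGUAUuaucauuguccgag
mmu-let-7f-5p: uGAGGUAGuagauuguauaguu
mmu-let-7f-1-3p: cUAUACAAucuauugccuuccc
All 5 seeds differ. The hairpins of Mir421 (chrX:103572921-103572996, minus strand) and Mir374b (chrX:103573060-103573154, minus strand) lie 63 bases apart, while that of Mirlet7f-1 lies at chr13:48537829-48537917, also on the minus strand. Mir421 measured 6.16, 6.07, 5.74 and 5.96 in early night and 6.56, 6.61, 6.33 and 6.40 in late night (0.49 ± 0.07). Its neighbour Mir374b measured 4.99, 4.84, 5.15 and 5.03 against 5.29, 5.41, 5.59 and 5.49 (0.44 ± 0.07). Groups of both loci were apart, but T60 was the lowest early array of Mir421 and the highest of Mir374b. Mirlet7f-1 was dim, at 4.02 to 4.13 in early and 4.37 to 4.51 in late night (0.40 ± 0.06). Its probe set and that of Mir374b lie below the 30th percentile of signal. A probe set of this array reads transcript from the locus, and the amount of mature microRNA was not measured.

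Among the 12 genes called lower in late night, Unc13a, which primes synaptic vesicles for release, had the smallest adjusted p (0.0393). Its probe set measured 9.67, 9.50, 9.69 and 9.66 in early night and 8.88, 9.05, 8.88 and 9.03 in late night (-0.67 ± 0.07, 1.59-fold lower). The groups were well apart on that probe set, but the other probe sets of Unc13a differed by -0.16 (unadjusted p = 0.0497 in limma) and 0.10. The direction of Unc13a as a whole is therefore uncertain. Kif1c, a kinesin motor, measured 10.001, 9.83, 9.97 and 9.85 against 9.52, 9.41, 9.06 and 9.30 (-0.59 ± 0.09), and its other probe set differed by -0.33. Ltc4s, the synthase of leukotriene C4, differed by -0.56 ± 0.09, with T36 highest at 6.46 and T44 lowest at 5.36.

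The other genes called lower were more varied. Mettl22, a methyltransferase, differed by -0.46 ± 0.07, Tsr3, an enzyme of ribosomal RNA modification, by -0.43 ± 0.07 (-0.17 on its other probe set), and the cytokine gene Il17d by -0.43 ± 0.06. The uncharacterised 1700066M21Rik differed by -0.48 ± 0.08. Per2 and Ifit3 are described with their groups. Olfr603, an olfactory receptor gene (-0.80 ± 0.12), Hbq1a (-0.63 ± 0.10) and Abcc6 (-0.40 ± 0.07) fall outside the rule for naming. Olfr603 measured 4.83, 4.79, 4.94 and 5.12 against 3.84, 4.42, 4.07 and 4.14, and it belongs to the receptor genes that make up the array background. Hbq1a has a near-identical copy, Hbq1b, whose transcripts the probe set may also read. Of the 12 genes, 8 had their highest mean at CT 12 or 14 and 10 their lowest at CT 20 or 22. The calls were made on the arrays of these times, so both counts follow in part from the choice of genes.

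**Figure D2:**
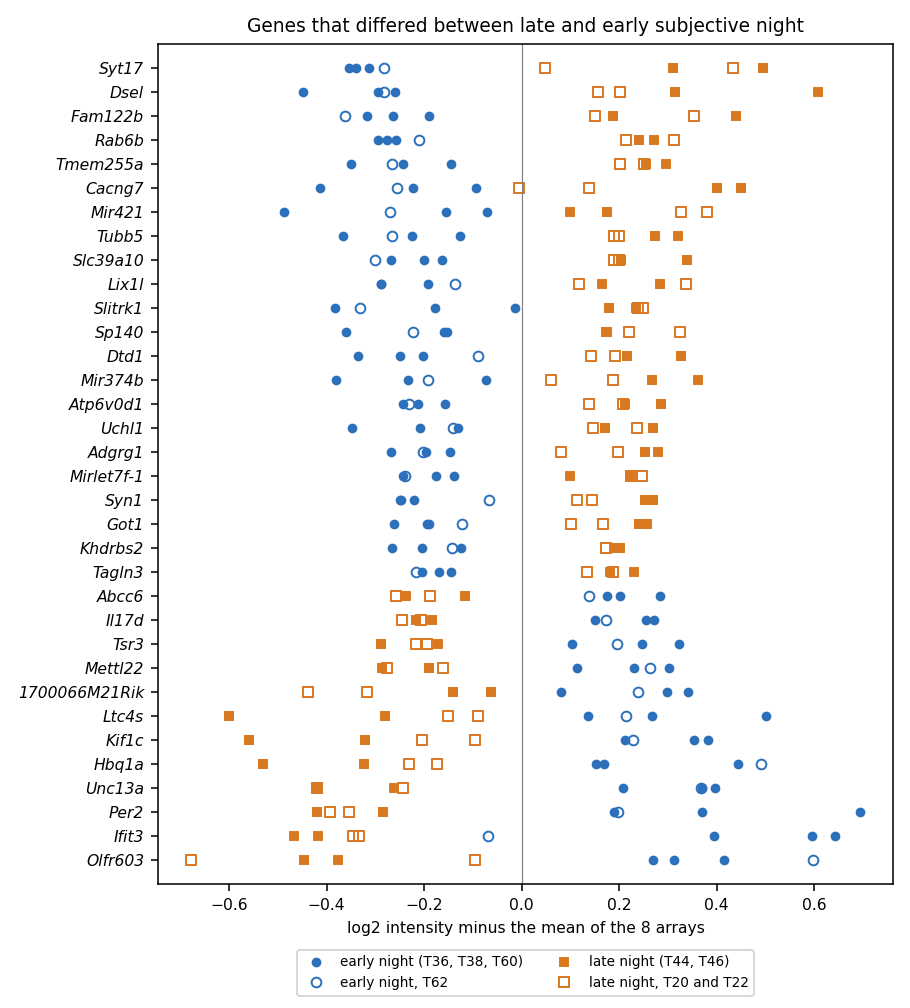
Level of each of the 34 genes called between late and early night, as log2 intensity minus the mean of the 8 arrays (horizontal axis). Blue circles are early-night arrays (open, T62), orange squares late-night arrays (open, T20 and T22). In all 22 genes above and all 12 below, the late arrays lie on 1 side of every early array.

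Of 18 measured genes of the core clock loop, 1 was called, Per2, which was lower in late night (0.0602% of all genes). Per2, a repressor of its own transcription, measured 7.59, 7.41, 7.91 and 7.41 in early night and 6.82, 6.86, 6.93 and 6.80 in late night. The late arrays lay close together and below all early arrays, of which T60 was the highest. The difference was -0.72 ± 0.10 (1.65-fold lower, adjusted p = 0.0462). The other Period genes were less far apart. Per1 differed by -0.15 ± 0.11 and Per3 by -0.19 ± 0.08, both with overlapping arrays.

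Arntl and Clock, the activating pair of the loop, were on the side opposite to Per2. Arntl measured 7.64, 7.44, 7.58 and 7.44 against 7.91, 7.76, 7.73 and 7.86 (0.29 ± 0.07, adjusted p = 0.0840), and Clock 8.88, 8.97, 9.02 and 8.83 against 9.14, 9.07, 9.07 and 9.13 (0.18 ± 0.07, adjusted p = 0.169). In both the late arrays lay above all early ones without a call. Dbp, an activator at D-boxes, measured 7.95, 7.70, 8.06 and 7.76 against 7.54, 7.49, 7.26 and 7.38 (-0.45 ± 0.10, adjusted p = 0.0662), again without overlap. Nfil3, which represses at the same sites, was at 7.67 to 7.98 in early and 7.88 to 8.08 in late night (0.20 ± 0.08).

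The rest of the loop overlapped between the groups. Nr1d1, which encodes REV-ERB alpha, a repressor of Arntl, measured 8.92, 8.92, 9.16 and 8.73 against 9.16, 9.13, 9.34 and 9.56 (0.36 ± 0.10, adjusted p = 0.0931), while its relative Nr1d2 differed by -0.04 ± 0.08. Cry1 differed by -0.28 ± 0.09, Bhlhe41 by -0.23 ± 0.09, Hlf by -0.20 ± 0.09, Cry2 by -0.16 ± 0.09, Tef by -0.15 ± 0.07 and Rora by -0.14 ± 0.14. Rorb was at 0.16 ± 0.12, Bhlhe40 at -0.01 ± 0.08, and Ciart, a repressor in the loop, at -0.41 ± 0.21. By sign 5 of the 18 genes were higher and 13 lower, with a median of -0.15 against -0.02 over all genes (-0.19 against 9.87e-05 after quantile normalisation). With the filter on dim genes Arntl was called higher and Per2 and Dbp lower (adjusted p = 0.0489, 0.0176 and 0.0344), beside 2.92% of all genes called higher and 1.18% lower. Of the 18 genes 2 were apart upwards, 11.1% (level share 15.6%), and 2 downwards, 11.1% (level share 4.68%).

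Promoters of the loop were read because its members lay on both sides. The table of RefSeq promoters (GRCm38.p6, 250 bases before to 50 after a start, 32851 promoters) held 16 of the 18 genes. Per2 had no entry, so its promoter was not searched. The REV-ERB and ROR element TAGGTCA, on either strand, was found in 2 of them, Arntl and Nfil3, and in 2.61% of all promoters. In Arntl it lies just after the start (chr7:113207529-113207558, plus strand; element in capitals).
Arntl: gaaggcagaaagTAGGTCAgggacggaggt
The E-box CACGTG was in 5 of the 16 (Per1, Cry1, Tef, Bhlhe41 and Ciart) and in 7.15% of all promoters, and the D-box TTATGTAA was in 1, Per3, and in 0.938%. The 2 genes with the REV-ERB and ROR element had a median difference of 0.24, and those without it -0.15. The 5 with an E-box had a median of -0.23, and those without it -0.04.

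Glucocorticoid-induced genes lay mostly lower in late night: 16 of 20 had a negative difference and in 8, or 40%, all late arrays were below all early ones (5.98% of all genes, level share 5.27%), with none on the other side. None was called over all genes, and 3 were called lower with the filter on dim genes (1.18% of all genes). Nfkbia, the inhibitor of NF-kappa-B, measured 8.04, 7.72, 8.05 and 7.74 in early night and 7.47, 7.25, 7.32 and 7.41 in late night. The arrays at CT 12 were the highest in each cycle, all late arrays were lower, and the difference was -0.53 ± 0.10 (1.44-fold lower, adjusted p = 0.0605, 0.0286 with the filter). The metallothionein gene Mt1, whose protein binds zinc, measured 12.62, 12.46, 12.67 and 12.50 against 12.24, 12.16, 12.19 and 12.18 (-0.37 ± 0.07, adjusted p = 0.0605). Mt2 measured 12.17, 11.73, 12.06 and 11.78 against 11.63, 11.51, 11.44 and 11.58 (-0.40 ± 0.10).

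Other members lay lower in late night as well, and the early arrays at CT 12 were mostly above those at CT 14. Klf15, a transcription factor of metabolism, measured 7.83, 7.34, 7.40 and 7.61 against 7.11, 7.07, 7.17 and 7.14 (-0.42 ± 0.10), with the late arrays close together. Tsc22d3 (GILZ), a mediator of glucocorticoid action, measured 7.71, 7.51, 7.67 and 7.51 against 7.43, 7.25, 7.31 and 7.31 (-0.28 ± 0.07). Plin4 (-0.22 ± 0.08) and Hif3a (-0.25 ± 0.09) were also apart. Sgk1, a kinase induced by the hormone, measured 9.04, 7.997, 8.62 and 7.90 against 8.49, 7.51, 7.54 and 7.53, so that T20 reached into the early range (-0.62 ± 0.25). Fkbp5, a brake on the receptor, overlapped too (-0.25 ± 0.09), as did Zbtb16 (-0.38 ± 0.12). The list median was -0.24 against -0.02 over all genes (-0.19 after quantile normalisation). The response element GNACANNNTGTNC, on either strand, was in 3 of 19 promoters (Sgk1, Mt1 and Map3k6) and in 0.475% of all.

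Cytosolic heat shock genes lay on the other side. Of 24 measured, 21 were higher by sign and in 11, or 45.8%, all late arrays were above all early ones, with none below. The share over all genes was 8.07%, but 18 of the 24 lie in the 3 brightest deciles and the level share was 21%. None was called over all genes, and 5 were called higher with the filter on dim genes (2.92% of all genes). Hsph1, an HSP110 chaperone, measured 9.68, 10.01, 9.53 and 9.81 in early night and 10.37, 10.34, 10.16 and 10.31 in late night. In early night CT 14 was above CT 12 in each cycle, and every late array was higher still (0.53 ± 0.09, 1.45-fold, adjusted p = 0.0501, 0.0228 with the filter). Ahsa1, which stimulates HSP90, measured 9.47, 9.51, 9.30 and 9.55 against 9.97, 9.85, 9.73 and 9.79 (0.38 ± 0.07, adjusted p = 0.0605). The abundant constitutive chaperone Hspa8 measured 12.10, 12.19, 12.15 and 12.12 against 12.38, 12.35, 12.37 and 12.42 (0.24 ± 0.06), and its other probe sets differed by 0.25 and 0.28.

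Co-chaperones and the mitochondrial chaperonin were also apart. Dnaja4 differed by 0.31 ± 0.08, Hspb8 by 0.32 ± 0.10, the HSP90 partners Fkbp4 by 0.26 ± 0.07 and Chordc1 by 0.25 ± 0.07, Hspa4l by 0.23 ± 0.06 and the mitochondrial Hspd1 by 0.20 ± 0.07, all without overlap. Stip1, which links HSP70 to HSP90, differed by 0.32 ± 0.08 but overlapped, since T38 (10.06) was above T44 (10.04). The inducible Hspa1a, which shares much of its sequence with Hspa1b, did not follow: it measured 7.45, 7.52, 7.37 and 7.97 against 7.69, 7.52, 7.16 and 7.43 (-0.13 ± 0.14), and its sign turned without T62 (0.04). Dnajb6 was at -0.32 ± 0.13. The median of the list was 0.15 (0.11 after quantile normalisation).

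The heat shock element GAANNTTCNNGAA, on either strand, was in 5 of 21 promoters (Hsph1, Hspd1, Hspe1, Dnajb6 and Chordc1) and in 0.603% of all promoters. The windows around it in Hsph1 (chr5:149636287-149636316, minus strand) and Chordc1 (chr9:18292259-18292288, plus strand, 3 overlapping matches) are shown with the matched letters in capitals.
Hsph1: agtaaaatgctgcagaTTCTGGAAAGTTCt
Chordc1: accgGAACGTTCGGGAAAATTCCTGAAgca
The 5 genes had a median difference of 0.20 and the other 16 one of 0.15, and Dnajb6, which holds the element, was negative.

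The cold-inducible RNA-binding genes, which mild cooling of cells induces, had differences opposite in sign to most heat shock genes. Rbm3 measured 10.06, 9.76, 10.14 and 9.95 in early night and 9.32, 9.37, 9.71 and 9.51 in late night. All late arrays were lower, with T44 nearest to the early group (-0.50 ± 0.09, 1.41-fold lower, adjusted p = 0.0507, 0.0248 with the filter, 0.0351 after quantile normalisation). Its other probe sets differed by -0.47 and -0.46. Cirbp measured 9.33, 9.04, 9.45 and 9.15 against 8.99, 8.90, 9.17 and 9.04 (-0.22 ± 0.09) and overlapped.

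Chaperones and stress genes of the endoplasmic reticulum resembled the heat shock genes in sign. Of 23, 20 were higher, with a median of 0.13 (0.06 after quantile normalisation), and none was called over all genes. Most of them, 21, lie in the 3 brightest deciles, where the medians of all genes were 0.05 to 0.09. After quantile normalisation Canx, P4hb, Dnajb9, Atf4, Atf6 and Herpud1 turned negative and Trib3 turned positive. Of the 23, 5 were apart upwards, 21.7%, which is near the level share of 20.1% and so is no result about the list, and 1 was apart downwards. Calr, the lectin chaperone calreticulin, measured 9.66, 9.86, 9.77 and 9.78 against 10.22, 10.10, 10.13 and 10.21 (0.40 ± 0.07, 1.32-fold, adjusted p = 0.0506, 0.0227 with the filter). Pdia6, a disulfide isomerase, measured 8.53, 8.40, 8.20 and 8.38 against 8.94, 8.77, 8.64 and 8.71 (0.39 ± 0.07, adjusted p = 0.0605). Both showed a clear gap between the groups, and in both cycles. Sel1l, of the degradation machinery, differed by 0.22 ± 0.07 and Hsp90b1 by 0.20 ± 0.06. Hspa5 (BiP) overlapped through T38 (0.25 ± 0.09), and Ddit3 (CHOP), a transcription factor of the stress response, was -0.18 ± 0.07 with all late arrays below.

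The endoplasmic reticulum stress element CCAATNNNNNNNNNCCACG, on either strand, was in 8 of 20 promoters of this list and in 0.119% of all promoters. It is shown in capitals in Pdia6 (chr12:17266339-17266588, plus strand) and Calr (chr8:84846932-84847181, minus strand), where it stands in opposite orientations.
Pdia6: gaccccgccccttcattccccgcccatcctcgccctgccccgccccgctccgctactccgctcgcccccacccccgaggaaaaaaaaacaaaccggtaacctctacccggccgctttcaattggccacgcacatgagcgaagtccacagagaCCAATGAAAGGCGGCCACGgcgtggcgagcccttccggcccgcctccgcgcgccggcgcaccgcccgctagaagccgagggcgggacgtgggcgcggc
Calr: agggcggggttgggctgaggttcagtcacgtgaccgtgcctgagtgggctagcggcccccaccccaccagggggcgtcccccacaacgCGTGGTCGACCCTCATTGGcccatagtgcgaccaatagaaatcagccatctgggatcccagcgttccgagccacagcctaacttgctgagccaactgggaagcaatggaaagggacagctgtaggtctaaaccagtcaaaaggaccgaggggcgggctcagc
The 8 genes with the element (Hspa5, Hsp90b1, Calr, Canx, Pdia6, Dnajc3, Creld2 and Syvn1) had a median difference of 0.17, and the other 12 one of 0.09.

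Interferon-induced genes were lower by sign in 19 of 22, with 1 called, Ifit3 (0.0602% of all genes were called lower). Ifit3, an antiviral protein, measured 9.25, 9.49, 9.45 and 8.78 in early night and 8.51, 8.52, 8.44 and 8.38 in late night. T62 was the lowest early array by far, and the late arrays lay close together below it (-0.78 ± 0.12, 1.72-fold lower, adjusted p = 0.0470). The probe set may also read Ifit3b, a near-identical neighbour. Ifi27l2a measured 8.52, 8.29, 8.48 and 7.70 against 7.96, 7.54, 7.25 and 7.79 (-0.61 ± 0.17), and Ifit1 5.996, 6.47, 6.17 and 5.73 against 5.87, 5.75, 5.53 and 5.63 (-0.40 ± 0.12). In both, overlap came from T62 alone. Rtp4 was apart (-0.35 ± 0.14). With all 8 arrays 2 of the 22 had all late arrays lower, and without T62 9 did, against 7.79% of all genes without T62. On 8 arrays those 2 are 9.09% of the list (level share 5.99%). The median of the list was -0.17 (-0.12 after quantile normalisation, where Ifih1, Irf9, Mx1 and Mx2 turned positive).

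The interferon-stimulated response element was searched as TTTCNNTTTC on both strands. It was in 10 of 15 promoters of the list and in 3.44% of all promoters. That of Ifit3 (chr19:34583279-34583528, plus strand) holds 2 matches, in capitals.
Ifit3: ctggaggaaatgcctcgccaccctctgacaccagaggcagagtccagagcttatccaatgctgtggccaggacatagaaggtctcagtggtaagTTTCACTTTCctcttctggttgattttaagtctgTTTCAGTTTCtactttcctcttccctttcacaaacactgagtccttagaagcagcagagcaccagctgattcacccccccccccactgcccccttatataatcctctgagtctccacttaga
The 10 genes had a median difference of -0.26 and the other 5 one of -0.16.

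Of 26 SCN neuropeptides and receptors, 2 were apart upwards, 7.69%, which does not exceed the 8.07% of all genes or the level share of 13.9%. None was called over all genes. Both of the 2 are receptors. Vipr2, the receptor through which VIP couples SCN neurons, measured 7.81, 7.77, 8.02 and 7.70 in early night and 8.55, 8.13, 8.40 and 8.61 in late night. The gap between T60 and T22 was small, and the other late arrays lay well above (0.60 ± 0.10, 1.52-fold, adjusted p = 0.0507, 0.0248 with the filter). Prokr2, the receptor of the SCN output peptide prokineticin 2, measured 8.90, 8.77, 8.87 and 8.72 against 9.51, 9.01, 9.21 and 9.45 (0.48 ± 0.11, adjusted p = 0.0679). With the array background as a covariate the differences were 0.26 and 0.18.

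The peptides themselves overlapped. Avp measured 11.26, 10.45, 11.62 and 10.70 against 10.88, 10.18, 10.54 and 11.06 (-0.34 ± 0.24): CT 12 was above CT 14 in each cycle, and in late night the order of CT 20 and 22 turned between cycles. Vip differed by -0.13 ± 0.18, Prok2 by -0.21 ± 0.11 and Nms (neuromedin S) by 0.31 ± 0.14. The median of the list was -0.08, and 0.00 after quantile normalisation.

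**Figure D3:**
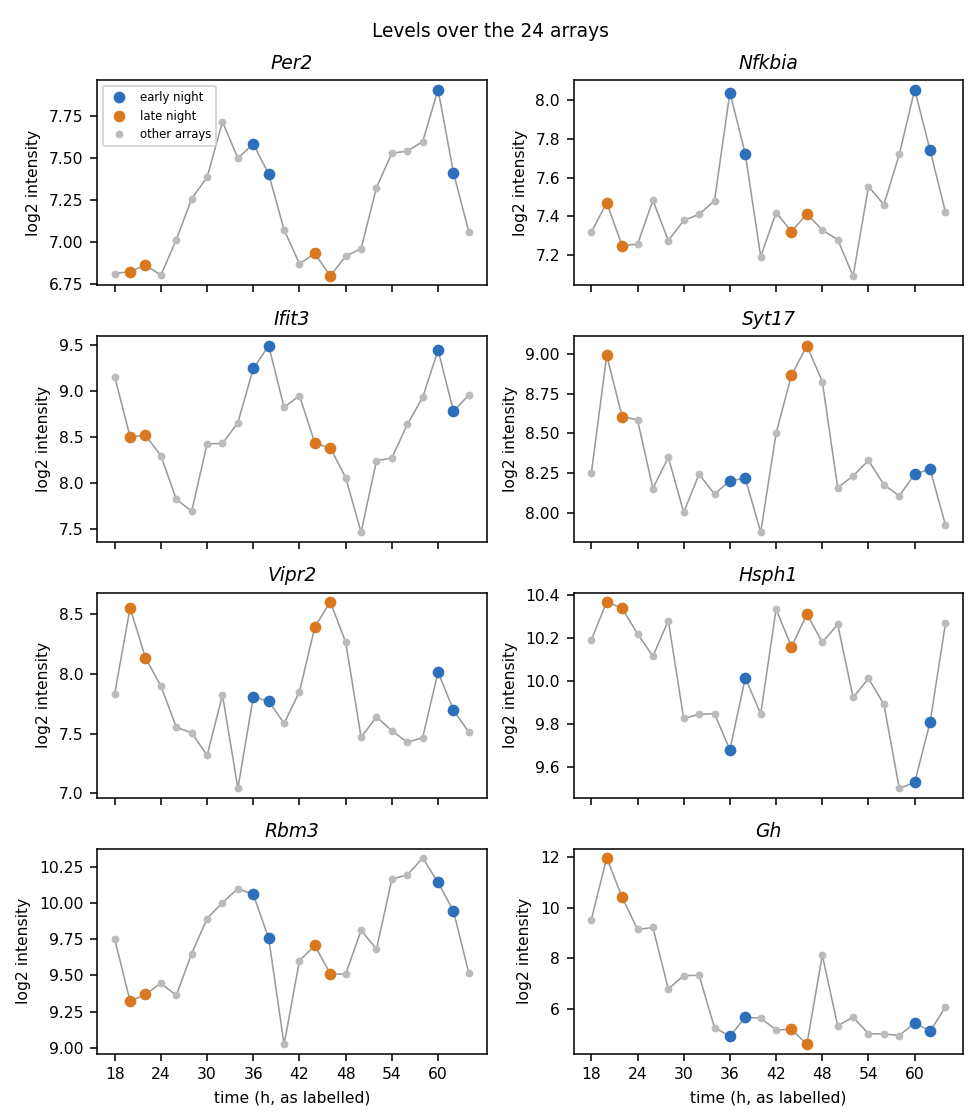
Log2 intensity (vertical axes) of 8 genes over the 24 arrays by labelled time (horizontal axis, h); blue points are early night, orange points late night, grey points the other arrays. Per2, Nfkbia, Ifit3 and Rbm3 are lower and Syt17, Vipr2 and Hsph1 higher at every late-night array than at every early-night array. Gh is high at T20 and T22 and between 4.60 and 5.67 in the other 6 early-night and late-night arrays. Among the grey points Gh reaches 9.53 at T18.

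Lists of neuronal excitability and signalling had medians above 0 in late night. No member of the ion channel, glutamate, GABA or G protein lists was called over all genes. These lists are given beside pan-neuronal markers, whose mean was 9.32 to 9.39 in early and 9.44 to 9.51 in late night without overlap. Of 12 markers 6, 50%, were apart upwards (level share 24.1%), namely Syn1, Map2, Snap25, Eno2, Stmn2 and Elavl4. The others overlapped and differed little: Rbfox3 by 0.06, Syp by 0.04, Nefl by 0.004, Nefh by -0.03, Tubb3 by -0.04 and Nefm by -0.04. After quantile normalisation all of these but Rbfox3 were negative, so the marker list was split. The part of the shift in the marker mean, and of the shift with signal level, in the lists of excitability and signalling was not tested. Of 29 ion channels 9, or 31%, were apart upwards (8.07% of all genes, level share 12%) and 0 downwards (median 0.13, 0.08 after quantile normalisation). Cacna1c, an L-type calcium channel, measured 7.43, 7.55, 7.53 and 7.40 against 7.78, 7.83, 7.87 and 7.85 (0.35 ± 0.06, adjusted p = 0.0595). Cacna1e, an R-type channel, differed by 0.32 ± 0.06 and Nalcn, the sodium leak channel, by 0.25 ± 0.07. Kcnma1, the BK potassium channel, differed by 0.28 ± 0.07, and by -0.17 on its other probe set, which was dim (mean 3.36). Kcna2 differed by 0.32 ± 0.06 on 1 probe set and 0.11 on the other.

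Of 20 glutamate receptor genes 7, or 35%, were apart upwards (8.07% of all genes, level share 15.3%; median 0.16, 0.11 after quantile normalisation). Grin2b, an NMDA receptor subunit, measured 8.28, 8.32, 8.32 and 8.15 against 8.53, 8.62, 8.58 and 8.66 (0.33 ± 0.07), Grik2, a kainate receptor subunit, differed by 0.33 ± 0.07 and Gria2 by 0.21 ± 0.06. Of 20 GABA genes 5, or 25%, were apart upwards, near the level share of 23.7% (median 0.14, 0.08 after quantile normalisation). GABA is the transmitter of nearly all SCN neurons. Its receptor subunit gene Gabrb1 measured 9.06, 9.07, 8.92 and 9.03 against 9.33, 9.31, 9.43 and 9.31 (0.33 ± 0.07), and Abat, which breaks GABA down, differed by 0.31 ± 0.07. The synthesising enzyme Gad2 (0.22 ± 0.06) and the chloride exporter Slc12a5 (0.25 ± 0.06) were apart as well, and Gad1 (0.28 ± 0.08) was not.

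Of 30 genes of G protein and cAMP signalling 7, or 23.3%, were apart upwards (level share 16.1%; median 0.14, 0.08 after quantile normalisation). The phosphodiesterase gene Pde7b measured 9.06, 8.95, 9.17 and 8.85 against 9.58, 9.25, 9.44 and 9.59 (0.46 ± 0.10), and the adenylyl cyclases Adcy8 and Adcy2 differed by 0.40 ± 0.09 and 0.33 ± 0.07. Rgs16, a brake on Gi signalling, overlapped (0.34 ± 0.14), as did Rasd1 (-0.36 ± 0.13). Of 22 secretory genes 5, or 22.7%, were apart upwards (level share 24%), among them Cadps, a factor of dense-core vesicle release (0.33 ± 0.07), Snap25 (0.32 ± 0.07) and Syt4 (0.22 ± 0.07), and 1 downwards, Unc13a (median 0.07, 0.01 after quantile normalisation). The nicotinic receptor subunit Chrna3, outside the lists, measured 6.92, 6.68, 7.06 and 6.56 against 6.41, 6.28, 6.31 and 6.08 (-0.53 ± 0.11, adjusted p = 0.0646), opposite to the receptors above.

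**Figure D4:**
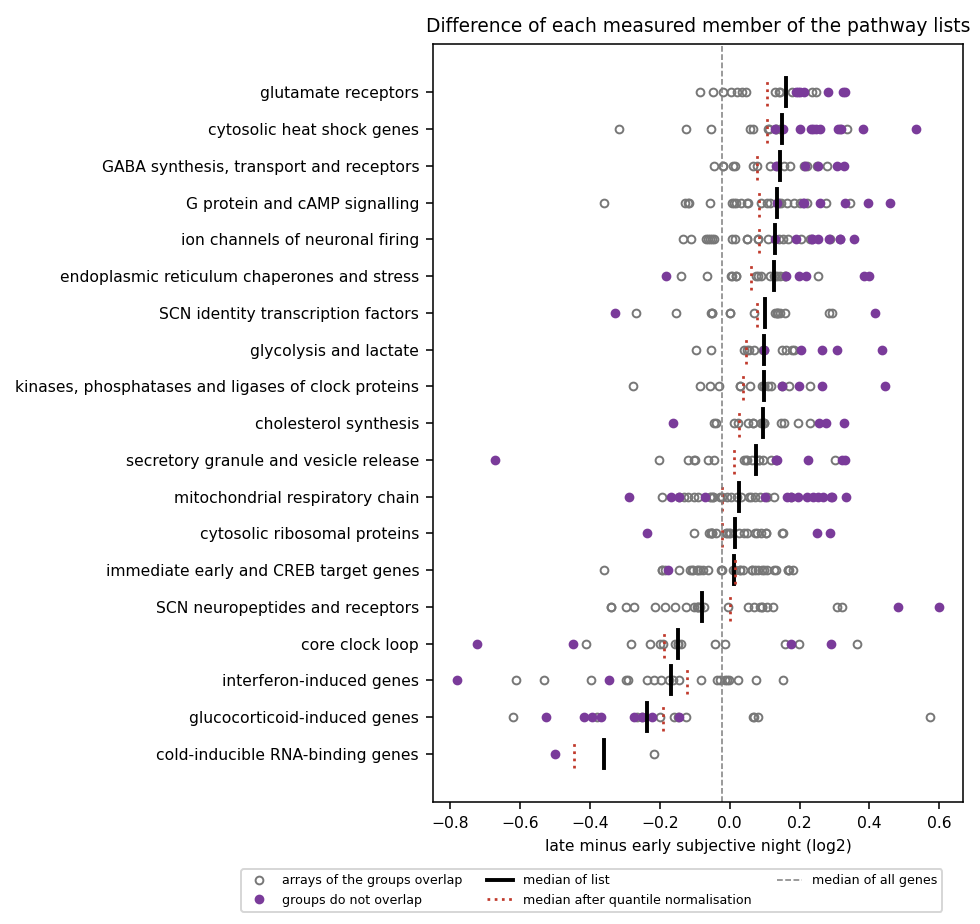
Late minus early night difference (log2, horizontal axis) of each measured member of 19 pathway lists (rows). Filled points are genes whose groups did not overlap, black bars list medians, red dotted bars medians after quantile normalisation, and the dashed line the median of all genes, -0.02. The medians run from 0.16 for glutamate receptors to -0.24 for glucocorticoid-induced and -0.36 for the 2 cold-inducible genes.

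In the glycolysis, respiratory chain and cholesterol lists the upward counts lay near those of equally bright genes. The upward count of ribosomal protein genes lay below, and no member of these lists was called over all genes. Of 17 glycolysis genes 5, or 29.4%, were apart upwards (level share 23.1%), led by Aldoc, an aldolase of brain (10.98, 10.75, 10.98 and 10.64 against 11.28, 11.06, 11.34 and 11.42, 0.44 ± 0.10), and Pfkp (0.31 ± 0.07). With the array background as a covariate Aldoc differed by 0.12. Of 38 respiratory chain genes, all in the 3 brightest deciles, 11, or 28.9%, were apart upwards (level share 28%) and 4, or 10.5%, downwards (level share 5.39%), with Atp5b, of ATP synthase, at 0.33 ± 0.06 and Ndufa2, of complex I, at -0.29 ± 0.06. The median of the chain was 0.03 and turned to -0.02 after quantile normalisation. Of 19 cholesterol genes 3, or 15.8%, were apart upwards (level share 16.3%), with Nsdhl at 0.33 ± 0.07 and Msmo1 at 0.27 ± 0.07 among them, and 1 downwards. The 24 ribosomal protein genes had a median of 0.01 (-0.02 after quantile normalisation), with Rpl5 (0.29 ± 0.06) and Rplp0 (0.25 ± 0.06) apart upwards, 8.33% (level share 28.4%), and 1 gene downwards.

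Among regulators, Ppp1ca, a catalytic subunit of protein phosphatase 1, measured 8.65, 8.36, 8.51 and 8.44 against 9.05, 8.85, 8.82 and 9.01 (0.44 ± 0.08, adjusted p = 0.0605). It was 1 of 4 apart upwards, 21.1% (level share 22.3%), among 19 kinases, phosphatases and ligases of clock proteins, with Huwe1, a ubiquitin ligase, at 0.27 ± 0.07. Of 18 transcription factors of SCN identity, Id2, an inhibitor of helix-loop-helix factors, was higher (0.42 ± 0.10) and Lhx2 lower (-0.33 ± 0.09), both without overlap and without a call, each 5.56% of the list (level shares 12.6% upwards and 5.05% downwards). Of 34 immediate early and CREB target genes 0 were apart upwards (level share 5.57%) and 1 downwards (Bdnf, -0.18 ± 0.06). Their median was 0.01, and Ier3 (-0.36 ± 0.12) overlapped. The cAMP response element TGACGTCA was in 3 of their 27 promoters and in 1.79% of all.

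Markers of other cell types mostly overlapped between the groups. Oligodendrocyte markers averaged 8.65 (T62) to 9.33 in early and 8.82 to 9.40 in late night, and 0 of 11 were apart. Astrocyte, microglia, endothelial, ependymal, choroid plexus, meningeal and neighbouring-nucleus means overlapped too. The astrocyte glutamate transporters Slc1a3 (0.28 ± 0.07) and Slc1a2 (0.24 ± 0.07) and the meningeal transporter Slc6a13 (0.56 ± 0.18) were apart upwards, as was the microglial Itgam (0.11). They make up 16.7% of the astrocyte list (level share 22.4%), 8.33% of the meningeal list (7.8%) and 9.09% of the microglia list (6.75%). Off-tissue markers (such as heart, lens and olfactory genes) did not overlap in their mean, which was 5.87 to 6.09 in early and 5.79 to 5.86 in late night. Of these, 2 of 7, Myh6 (-0.24 ± 0.07) and Cryaa (-0.17), were apart downwards.

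Whether the night difference changed between cycles was tested as an interaction, and 1 gene passed, 0.00502% of those tested, with 645 at an unadjusted p under 0.05. Growth hormone, Gh, measured 4.92, 5.67, 5.46 and 5.12 in early night and 11.96, 10.42, 5.20 and 4.60 in late night. T20 and T22 stood far above the other 6 arrays, so that the difference was 5.89 in the first cycle and -0.39 in the second (change -6.28 ± 0.61, adjusted p = 0.0301). The call was lost without T62 and after quantile normalisation. High Gh was not confined to these late-night arrays: outside the 8 arrays it measured 9.53 at T18, 9.14 at T24, 9.22 at T26 and 8.13 at T48. Of these, T24, T26 and T48 are arrays of the early subjective day. Prl (prolactin) measured 10.04 and 8.24 at T20 and T22 and 4.97 to 5.65 in the other 6 of the 8 arrays. Cga, the common subunit of glycoprotein hormones, was at 8.71 and 6.25 against 4.60 to 4.94. The neutrophil genes S100a8 (8.72) and S100a9 (9.60) were also highest at T20.

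Without T20 and T22 the leading differences were of like size. The genes were chosen by their values on all 8 arrays, and every subset below reuses some of these, so like size is no independent support. Per2 then differed by -0.80, Ifit3 by -0.70, Syt17 by 0.70, Vipr2 by 0.64, Hsph1 by 0.56, Nfkbia by -0.53 and Rbm3 by -0.43, although no gene passed on 6 arrays. In that comparison 14.3% of all genes had both late arrays above the early ones and 12.8% below. Without T62 the same genes differed by -0.81, -0.93, 0.64, 0.53, 0.58, -0.59 and -0.55, and 9.03% of all genes had the late arrays above. Between T36 and T38 and the arrays 8 h later in the same night, T44 and T46, Per2 differed by -0.63, Ifit3 by -0.96, Syt17 by 0.75, Vipr2 by 0.71, Hsph1 by 0.39, Nfkbia by -0.52 and Rbm3 by -0.30.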

How the data were processed

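RNA was amplified and labelled with NuGen kits, per the labels' protocols. The authors deposited log2 intensities of probe sets, made by RMA (version 1.3.1.187) in Affymetrix Expression Console, per the submitters' processing notes. The build is not given in the sources used here. Of 35556 probe sets 21789 had 1 gene symbol, 1621 several and 12146 were not listed. Each of 19938 genes was read by its brightest probe set, since 999 had several. All genes were fitted with limma 3.58.1 in R 4.3.3 with eBayes, cycle as a block (5 residual degrees of freedom), two-sided tests and Benjamini-Hochberg adjustment. The change between cycles was an interaction term. Arrays were grouped by their labelled time, and their number limits the precision. Figures used Python 3.11.15 and matplotlib 3.10.9. The fit was tested on simulated data. It recovered 35.8% of differences of 0.3, 95.5% of those of 0.6 and 100% of those of 1.2, with 6.7% of calls false. The simulated noise was independent between arrays, without the shift with signal level or background seen in the real arrays.

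The arrays compared and the gene lists were chosen with earlier results of these data known, so a direction that follows from that choice is no independent support. The rule named up to 12 called genes per direction with the largest difference, at or above the 30th percentile of signal (log2 5.52) and of 1 sign in both cycles, every core clock gene, up to 3 called genes or else 2 of smallest p per list, and the called genes of the interaction. Other named genes were chosen after their values were seen. Alternatives covered the filter, probe sets, normalisation, prior, weights, covariates, blocks, cycles and omitted arrays. Fits without T20 and T22, without those and T62, and on 24 arrays without T40, T62 and T64 were added after seeing the data. The level shares of the lists were computed after seeing the data. Matches to promoter letters are descriptions, not binding sites.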

Additional observations from a re-analysis of the deposited data

Results flagged for a closer look

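In each group of 4 arrays the gap of the extreme array to its nearest neighbour was compared with the range of the group, for 153 genes in both groups. Of these 306 groups 11 had 1 array far from the others, and chance alone flags about 1 in 20 groups. In early night the isolated arrays were T60 for Cldn5 (6.99) and Crh (5.22), both low, T62 for Syn1 (7.88, high) and T38 for Unc13a (9.50, low). In late night they were T20 for Gad2 (10.57, low) and Sgk1 (8.49, high), T22 for Nr1d2 (8.83, high), T44 for Fabp7 (10.21, low) and Rpl5 (10.87, low), and T46 for Mirlet7f-1 (4.37, low) and Slc39a10 (8.83, high). No array held more than 2 of the 11.

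Gh was the single gene whose night difference changed between cycles by test (-6.28 ± 0.61, interaction term in limma, adjusted p = 0.0301). It was high at T20 (11.96) and T22 (10.42), beside the pituitary markers Prl and Cga, and also outside the 8 arrays, as at T18 (9.53), T24 (9.14) and T26 (9.22).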

How the results depend on the processing

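The main counts of 22 genes higher and 12 lower sat at the threshold, with every adjusted p between 0.0393 and 0.0498. Leaving out 1 array at a time gave 0 to 1 higher and 0 to 2 lower. Higher and lower counts were 60 and 34 with no cycle block, 0 and 0 with 4 matched pairs as a block, 1 and 0 within cycle 1, 0 and 0 within cycle 2 and 0 and 0 within the same night. They were 48 and 43 on all 24 arrays (15 of the 34 shared) and 11 and 22 on 24 arrays without T40, T62 and T64. The filter at the 30th percentile gave 407 and 164 (29 of the 34 kept), at the 50th 849 and 269, all probe sets 50 and 24, and a trended prior 778 and 323. Median centring gave 156 and 39, quantile normalisation 16 and 26 (21 of the 34 kept), and array weights 43 and 22. The array background covariate gave 0 and 1, as did the pituitary marker covariate, and 0 of the 34 were kept in either fit. A threshold of 0.01, the fit without T20 and T22 and the fit without T62, T20 and T22 left 0 and 0. These counts of 0 stand beside 1656 to 4426 genes at an unadjusted p under 0.05 in limma. Fewer arrays and residual degrees of freedom enter the fits on subsets, and the cause of the other moves was not tested. The change between cycles gave 0 genes without T62 (leave-one-out) and 0 after quantile normalisation. No replicate number pairs these arrays in the labels; the cycle was the block.

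Signs turned in 16 named genes, none of them called over all 8 arrays. With the array background covariate the differences were 0.236 for Crh, -0.0542 for Fabp7, 0.118 for Hspa1a, -0.215 for Nms, 0.143 for Prok2, -0.231 for Rorb and -0.121 for Slc6a13. Within cycle 2 they were 0.0885 for Bhlhe40, -0.154 for Cga, -0.388 for Gh, 0.0142 for Nr1d2 and -0.155 for Prl, and without T20 and T22 0.0886, -0.154, -0.388, 0.0142 and -0.155. Without T62, T20 and T22 they were -0.162 for Cga, -0.0271 for Fabp7, -0.558 for Gh, 0.0210 for Omp, -0.0463 for Rorb, -0.399 for S100a8 and -0.265 for S100a9. Within the same night they were 0.0223 for Bhlhe40, -0.400 for Gh and -0.161 for S100a8. The pituitary marker covariate gave 0.0521 for Bhlhe40, -0.0468 for Cga and 0.0258 for Nr1d2, and median centring 0.0134 for Bhlhe40. Hspa1a was 0.121 within cycle 1 and 0.0232 on 24 arrays without T40, T62 and T64. With 1 array left out Bhlhe40 ranged from -0.101 to 0.0309, Hspa1a from -0.208 to 0.0437 (without T62) and Vip from -0.317 to 0.0228. The cause was not tested.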
